A study of Mus musculus with 2 samples.

Results

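Basophil-committed cells were examined in single-cell RNA profiles of mouse bone marrow that carried a leukaemia-associated RUNX1 mutant, in a Phf6 knockout (KO) and a Phf6 wild-type (WT) background. A cell was taken as basophil-committed when it held at least 500 detected genes, at most 10% mitochondrial RNA and a sum of at least 10 unique molecular identifiers (UMIs, counted RNA molecules) of Mcpt8 and Prss34, so the members were chosen by these 2 genes. The rule kept 99 of 4930 KO cells and 112 of 4702 WT cells, 211 of 9632 cells in all. Donor marrow from Phf6 KO or WT mice had been transduced with a RUNX1-S291fs vector that also carries GFP, and the GFP-positive cells were transplanted. GFP+Lin- cells, which carry the vector and lack the surface proteins of mature blood lineages, were sorted from recipient marrow 8 weeks later. All cells compared therefore carried the RUNX1 mutant, and neither group shows normal marrow. Each genotype has 1 library, so no p-value was computed, and every interval below is a 95% interval that covers counting error only. The number of recipients behind a library, the strain, age and sex of the mice, and the deleted part of Phf6 are not given in the sources used here.

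Basophils are rare granulocytes that arise in the bone marrow from progenitors shared with mast cells, and they take part in allergy and in defence against parasites. They carry the high-affinity IgE receptor, made of the ligand-binding chain Fcer1a, the signal-amplifying chain Ms4a2 and the shared signalling chain Fcer1g. Crosslinking of that receptor releases histamine, made by the enzyme Hdc, and granule proteases, and switches on interleukin-4 and chemokine genes. In the mouse, Mcpt8 and Prss34 encode basophil granule proteases, and Cd200r3 encodes a surface receptor of basophils and mast cells. Gata2, Cebpa and Runx1 are transcription factors known for their part in mouse basophil development, and Phf6 encodes a chromatin protein that is mutated in leukaemia.

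The proximal promoters of 4 of the 5 marker genes are printed because their RNAs set these cells apart from the rest of the marrow. Each run is 300 bases of GRCm38.p6, from 250 before to 50 after the gene's RefSeq start, 5′ to 3′ on its strand. For Mcpt8 and Fcer1a this start differs from the one in the GENCODE positions given below. Capitals mark AGATAA or TGATAA, letters that GATA factors can bind, and TGTGGT, letters that RUNX factors can bind, each searched on both strands and with no overlap between them.
Mcpt8, chr14:56085148-56085447, minus strand: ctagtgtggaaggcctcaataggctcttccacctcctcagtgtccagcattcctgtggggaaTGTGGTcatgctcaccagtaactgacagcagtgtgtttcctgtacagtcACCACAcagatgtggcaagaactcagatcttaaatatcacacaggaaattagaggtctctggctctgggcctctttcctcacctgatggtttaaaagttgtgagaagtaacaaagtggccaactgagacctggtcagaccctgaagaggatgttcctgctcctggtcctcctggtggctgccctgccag
Prss34, chr17:25298144-25298443, plus strand: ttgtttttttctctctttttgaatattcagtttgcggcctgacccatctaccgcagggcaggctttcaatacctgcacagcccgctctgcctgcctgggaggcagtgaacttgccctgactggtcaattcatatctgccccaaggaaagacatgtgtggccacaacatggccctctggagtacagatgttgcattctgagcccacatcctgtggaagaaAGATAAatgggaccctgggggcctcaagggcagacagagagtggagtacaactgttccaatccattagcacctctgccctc
Ms4a2, chr19:11623670-11623969, minus strand: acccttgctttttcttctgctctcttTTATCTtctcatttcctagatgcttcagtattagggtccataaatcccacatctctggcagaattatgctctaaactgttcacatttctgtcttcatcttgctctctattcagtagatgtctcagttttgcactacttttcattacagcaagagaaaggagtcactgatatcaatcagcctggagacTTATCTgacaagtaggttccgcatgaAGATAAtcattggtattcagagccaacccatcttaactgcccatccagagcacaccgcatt
Fcer1a, chr1:173227180-173227479, minus strand: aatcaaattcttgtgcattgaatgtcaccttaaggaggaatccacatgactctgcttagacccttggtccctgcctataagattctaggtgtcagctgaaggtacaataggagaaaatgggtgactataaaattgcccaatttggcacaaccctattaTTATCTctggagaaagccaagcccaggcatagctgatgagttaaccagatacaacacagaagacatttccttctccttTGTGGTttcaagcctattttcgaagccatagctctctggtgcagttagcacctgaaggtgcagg
The GATA letters stood in 4 of the 5 marker promoters, Cd200r3 included and Mcpt8 not, against 18.6% of 32851 mouse promoters of the same length. The RUNX letters stood in 2 of the 5, those of Mcpt8 and Fcer1a, against 16.8% of all promoters. These matches describe the letters in the windows and are no evidence of binding.

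The libraries held 5260 KO and 5287 WT barcodes, with 120408100 and 131667969 UMIs. Cells had a median of 21982.5 UMIs in KO and 25206 in WT. Basophil-committed cells were shallower, with a median of 14242 UMIs and 3836 genes in KO and 13109.5 UMIs and 3725 genes in WT. Summed over all members, the KO cells held 1822602 UMIs and the WT cells 1931033. The libraries shared 10 barcodes, 0 of them among the members. Levels below are UMIs per 1000000 UMIs (CPM) of the summed cells, and each ratio is a log2 ratio of KO over WT. Fewer cells of one kind and less RNA per cell cannot be told apart in such sums.

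The marker genes stood far higher in members than in the other cells of both libraries. Some members also carried RNA of a second lineage, described below. Mcpt8 (GRCm38 chromosome 14, 56082166 to 56085273, minus strand) stood at 6871.5 CPM in KO members (interval 6751.7 to 6992.9) and 5180.1 in WT members (5079.1 to 5282.7), against 6.69 CPM in the other KO cells and 6.27 in the other WT cells. Prss34 (chromosome 17, 25298394 to 25300165, plus strand) stood at 6313.5 CPM in KO members and 6560.2 in WT members, against 1.46 and 1.64 in the other cells. Both genes chose the cells, so their height is no finding, and the 3 markers outside the rule are the better guide. Of these, Cd200r3 is also a receptor of mast cells. Ms4a2 (chromosome 19, 11615523 to 11623719, minus strand) was at 1062.2 CPM in KO members and 1067.8 in WT members, with at least 1 UMI in 91.9% and 98.2% of them. Fcer1a (chromosome 1, 173221284 to 173227214, minus strand) was at 266.1 and 261.5 CPM, in 44 of 99 KO and 64 of 112 WT members. Cd200r3 (chromosome 16, 44943678 to 44981380, plus strand) was at 562.9 CPM in KO members and 756.1 in WT members, in 81.8% and 88.4% of them. In the other cells these 3 genes reached 12.3, 0.222 and 3.72 CPM in KO and 26.7, 0.439 and 5.61 CPM in WT.

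Detection was also compared at equal depth, with each cell thinned to 5000 UMIs, which left 96 KO and 111 WT members. Ms4a2 then had a UMI in 87.5% of KO and 93.7% of WT members, Cd200r3 in 71.9% and 81.1%, and Fcer1a in 40.6% and 48.6%. B lineage cells, which should lack these genes, showed what free RNA gives. Among 45 thinned B lineage cells of the KO library none had a UMI of Ms4a2, Fcer1a or Cd200r3, which allows a share of up to 6.67% by the floor of 3 counts and 7.87% by the interval. Among 97 of the WT library 1 had Ms4a2, 0 had Fcer1a and 3 had Cd200r3. The median depth of the cells was equal by construction, so the members stood well above this background.

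Basophil-committed cells took a like share of both libraries. They were 2.01% of KO cells (interval 1.64 to 2.44) and 2.38% of WT cells (1.97 to 2.86), a KO minus WT difference of -0.374 percentage points with an interval of -0.968 to 0.213. Cells with Ms4a2 and Gata2 RNA that the rule did not take differed more. Non-members with at least 3 UMIs each of Ms4a2 and Gata2, called early mast-basophil progenitors here, numbered 102 of the KO cells (2.07%, 1.69 to 2.51) and 235 of the WT cells (4.998%, 4.39 to 5.66). That difference was -2.93 points (-3.68 to -2.20). The UMI cutoffs depend on depth, and cells had a median of 21982.5 UMIs in KO and 25206 in WT. The sort gate sets which cells could enter either share, and no spread between recipients is known.

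The protease sum ranged widely among the members. It had a median of 118 UMIs in KO members, with a lowest of 11 and a highest of 1211, and of 75.5 in WT members, with a lowest of 10 and a highest of 1126. A sum of at least 50 UMIs was held by 69 cells in each library and one of at least 200 by 36 KO and 40 WT cells. The balance of the 2 proteases differed between the libraries. Mcpt8 exceeded Prss34 in 58 of 99 KO members and in 38 of 112 WT members, and Prss34 had no UMI in 18 KO and 7 WT members. Cells with RNA of a second lineage, described below, are among these: without them, Prss34 had a UMI in 72 of 81 KO and 89 of 94 WT members. The log2 ratio was 0.41 for Mcpt8 (0.37 to 0.45) and -0.06 for Prss34 (-0.09 to -0.02). As both genes chose the cells, these values are a description.

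**Figure D1:**
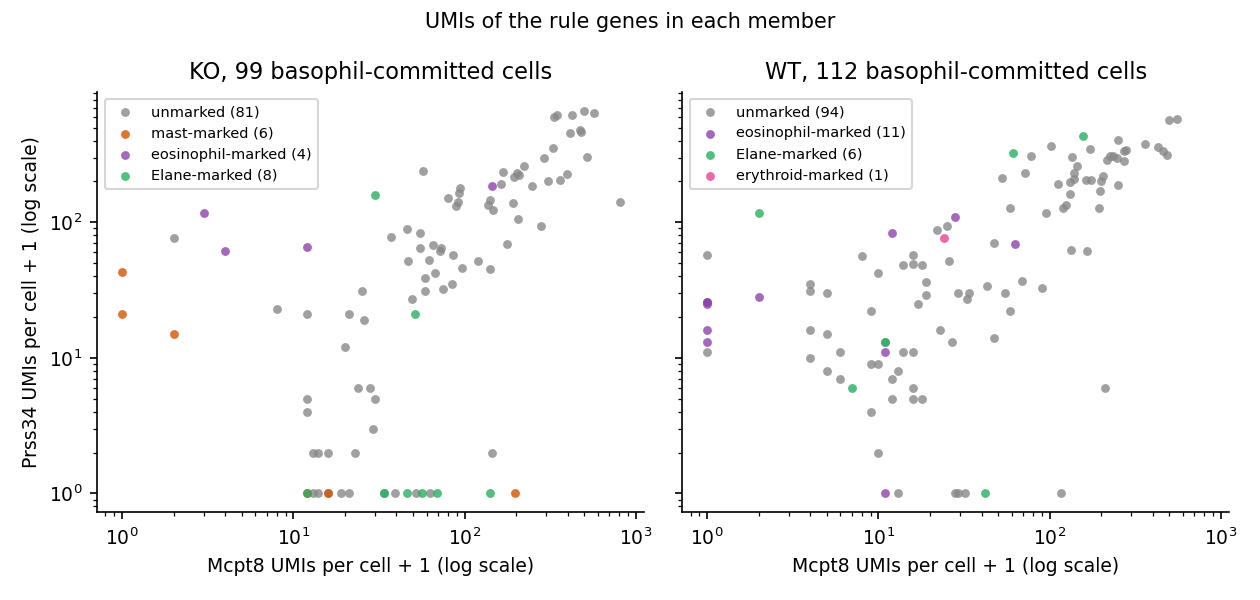
UMIs of Mcpt8 plus 1 (horizontal axis) against UMIs of Prss34 plus 1 (vertical axis), both on log scales, for each of the 99 KO members (left) and 112 WT members (right), coloured by the second set of marker genes a cell carried. Cells with many UMIs of one gene mostly hold many of the other, and 18 KO and 7 WT members lie at the bottom with no Prss34 UMI.

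Cells on the 2 sides of the threshold differed in depth and in Ms4a2. Just outside it, at 5 to 9 UMIs, lay 18 KO and 19 WT cells with a median of 39870.5 and 39122 total UMIs, and their Ms4a2 was at 16.1 CPM in KO and 127 CPM in WT. Just inside it, at 10 to 19 UMIs, lay 13 KO and 20 WT cells with 8267 and 10440 total UMIs, and their Ms4a2 was at 363 and 910 CPM. By these medians and sums, the cells just outside were deep with little Ms4a2, and those just inside were shallower with more. Single cells just inside varied, with 2498 to 49685 total UMIs in KO and 4636 to 29038 in WT. A KO cell among them held 197 UMIs of mast cell proteases, described below. A cutoff on UMIs admits deep cells with a small share of Mcpt8: neutrophil progenitors had a Mcpt8 UMI in 23.9% of KO and 26.8% of WT cells.

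Some members carried RNA of a second lineage, at thresholds chosen after seeing the data. Mast cell proteases, with at least 10 UMIs over Cma1, Tpsb2, Tpsab1 and Mcpt4, marked 6 of 99 KO members (6.06%, 2.26 to 12.7) and 0 of 112 WT members, for which the interval reaches 3.24%. Cma1, the mast cell chymase, gave 470 UMIs in 8 KO members and 0 UMIs in WT members, a level at least 166-fold higher against a floor of 3 counts. Tpsb2, a mast cell tryptase, gave 401 UMIs in 3 KO members, 64.8% of them in 1 cell, and 0 in WT members. The 6 mast-marked KO members were shallow, with a median of 7821.5 UMIs, and held 12391.7 CPM of the mast cell carboxypeptidase Cpa3 and 1080.8 CPM of the receptor Kit. Over all cells, 18 KO cells and 1 WT cell carried these proteases at that level. The WT library thus held almost no such cells, in or outside the members.

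Eosinophil granule genes marked 4 KO and 11 WT members, with at least 50 UMIs of Prg2 and Epx together. In these, Prg2, the eosinophil major basic protein, stood at 111125.5 CPM in KO and 104113.6 CPM in WT, and Cd200r3 had 0 UMIs in KO and 5 in WT. The eosinophil ribonuclease Ear2 had 0 UMIs in KO members and 57 in WT members, 56.1% of them in 1 cell, a level at least 17.9-fold lower in KO. Early neutrophil RNA, with at least 20 UMIs of the elastase Elane, marked 8 KO and 6 WT members of 43194 and 41660 median UMIs, and Prss34 had a UMI in 2 and 5 of these. A WT member of 96828 UMIs carried erythroid genes and held 89.2% of all erythroid-list UMIs of the WT members. Without these cells, 81 KO and 94 WT members were left, called unmarked members, with a median of 12769 and 12159.5 UMIs. Doublet scoring marked 11 KO and 5 WT members, and the rule kept them.

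Beyond the rule genes, the members were set apart by a compact group of genes, which is a description since cells chosen by 2 genes also bring their partners. Of 1528 genes at 100 CPM or more in the members, 39 were at least 8-fold above the other cells in both libraries and 15 at least 32-fold. Both counts include the 2 rule genes. After Prss34 and Mcpt8 stood Fcer1a, with a log2 ratio of members over other cells of 10.23 in KO and 9.22 in WT. Cyp11a1, the enzyme that starts steroid synthesis from cholesterol, followed with 8.70 and 9.11, and the type 2 cytokine gene Il4 with 7.39 and 7.29. Next came Cd200r3 with 7.24 and 7.07, the lysophospholipid receptor gene Gpr34 with 7.34 and 6.74, the muscle LIM protein gene Csrp3 with 6.81 and 6.54, and the macrophage growth factor gene Csf1 with 6.54 and 6.80. Hdc stood at 4.95 and 5.08 and the IL-18 receptor chain Il18rap at 4.85 and 5.65. Prg2, Prg3 and Epx, also among the 15 genes at 32-fold, came mostly from the eosinophil-marked cells: Epx had a UMI in 5 KO and 13 WT members.

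Phf6 was the targeted gene, and its RNA was examined first in the comparison of genotypes. Phf6 (chromosome X, 52912266 to 52956943, plus strand) gave 75 UMIs in 41 KO members and 96 UMIs in 54 WT members, which is 41.1 CPM (32.4 to 51.6) and 49.7 CPM (40.3 to 60.7). The log2 ratio was -0.27 with an interval of -0.73 to 0.18, so a lower level was not detectable at this depth. Over the other cells, Phf6 stood at 20.2 CPM in KO and 41.7 CPM in WT, a log2 ratio of -1.04 (-1.11 to -0.97), which lies outside the members' interval. Early mast-basophil progenitors lay between, at 34.8 and 54.8 CPM with a log2 ratio of -0.65 (-1.03 to -0.29). Among unmarked members the log2 ratio was -0.07 (-0.59 to 0.46). The 3′ tag does not show whether the RNA counted holds the deleted part, so these counts do not check the label.

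**Figure D2:**
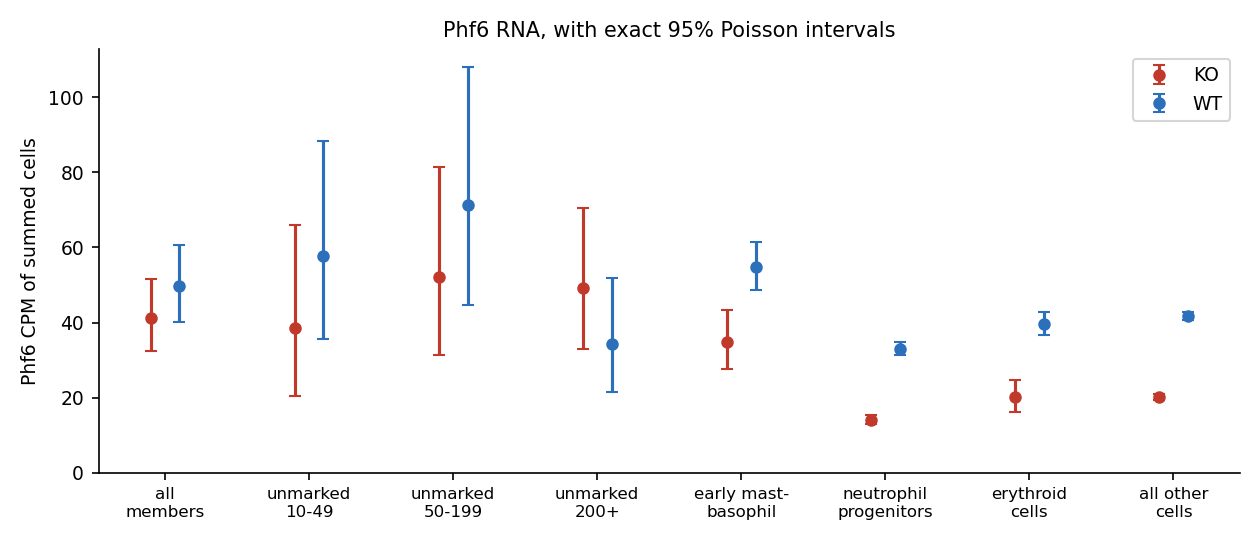
Phf6 level in CPM (vertical axis, bars are exact 95% Poisson intervals) in all basophil-committed cells, in unmarked members by UMIs of Mcpt8 plus Prss34, and in other groups of cells, KO left of WT. KO is lower than WT in the other cells, 20.2 against 41.7 CPM, while the intervals of the members, around 41.1 and 49.7 CPM, overlap.

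Runx1, the gene of the introduced mutant, was nearly equal in the members, although it was higher in the other KO cells. Runx1 (chromosome 16, 92601466 to 92826149, minus strand) stood at 2074 CPM in KO members and 2158.9 CPM in WT members, a log2 ratio of -0.06 (-0.12 to 0.01). Over the other cells the log2 ratio was 0.43 (0.42 to 0.45) and in early mast-basophil progenitors 0.54. Vector reads were not told apart, so the sum may mix endogenous and introduced transcripts.

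Few genes differed by 1.5-fold between the members of the 2 libraries. Of 3385 genes with a mean of at least 50 CPM, 72 were at least 1.5-fold higher in KO members (2.13%) and 83 at least 1.5-fold lower (2.45%). At 10 CPM, the minimum used for gene lists, 583 of 8360 genes were higher (6.97%) and 419 lower (5.01%), and the median log2 ratio of all genes was 0.04. In the other cells 2.22% of genes at 10 CPM were higher and 1.22% lower, where sums over far more cells leave less counting error. In the unmarked members the shares were 10.3% and 7.56%. The split at 50 CPM moved with the scaling, to 54 higher and 104 lower with median-of-ratios size factors, and with doublets removed the counts were 149 and 129. The counts of listed genes below are read against these shares.

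Genes of cell division were higher in KO members. Of 49 measured genes of the G2/M list, which act in mitosis, 27 were at least 1.5-fold higher in KO members and 0 lower, with a median log2 ratio of 0.65. In unmarked members 37 of 46 were higher and 0 lower, with a median of 1.07, while in the other cells 0 of 50 were higher or lower, with a median of -0.09. Top2a, the topoisomerase that untangles chromosomes, stood at 295 CPM in KO members and 135 in WT members, a log2 ratio of 1.13 (0.92 to 1.35), and it was found in 40 KO and 32 WT cells. The proliferation marker Mki67 stood at 156 and 89.1 CPM (0.81, 0.53 to 1.09), and 29.7% of its WT UMIs came from 1 cell. Tpx2, a spindle assembly factor, stood at 60.4 and 21.2 CPM (1.51), and the mitotic kinase Ttk at 23.0 and 7.77 CPM (1.57). DNA replication genes differed less: of 42 genes of the G1/S list, 5 were higher and 0 lower, with a median of 0.16, and in unmarked members 14 of 39 were higher, with a median of 0.45.

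The sums rest on a minority of cells. Per member, the summed G2/M list had a median of 23.0 UMIs per 10000 in KO cells (lowest 7.05, highest 295) and 19.6 in WT cells (lowest 6.80, highest 279). The 2 ranges overlap almost wholly, and the upper quartiles, 33.5 in KO and 26.8 in WT, lie further apart than the medians. The division list was higher in KO in each range of the protease sum among unmarked members. Few cells of the 2 lower ranges were called G2/M by the phase calls after thinning, described below. These were 1 of 19 KO and 0 of 32 WT unmarked members at 10 to 49 UMIs. From 50 to under 200 UMIs they were 2 of 24 KO and 0 of 24 WT unmarked members. At 10 to 49 UMIs, 33 of 46 genes were higher and 0 lower (background shares 24.3% higher and 26.6% lower), with a median log2 ratio of 1.62. From 50 to under 200 UMIs, 33 of 46 were higher and 1 lower (19.6% and 17.9%), with a median of 1.19, and at 200 UMIs or more 30 of 47 were higher and 0 lower (16.5% and 11.1%), with a median of 0.79.

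Cell cycle phases were called per cell from the same lists after thinning to 5000 UMIs, so they are no independent measure. G1 held 60 of 96 KO members (62.5%, 52.0 to 72.2) and 92 of 111 WT members (82.9%, 74.6 to 89.4), a difference of -20.4 points (-32.0 to -8.27). S phase held 22 KO members (22.9%) and 13 WT members (11.7%), and G2/M held 14 KO members (14.6%) and 6 WT members (5.41%). The other cells differed the other way, with 41.5% of KO and 31.0% of WT cells in G1. In unmarked members G1 held 52 of 78 KO cells (66.7%) and 83 of 94 WT cells (88.3%), a difference of -21.6 points (-33.8 to -9.21). Among early mast-basophil progenitors G1 held 50 of 100 KO cells and 93 of 235 WT cells, a difference of 10.4 points whose interval, -1.11 to 21.8, includes 0. Without thinning, G1 held 72.7% of KO and 87.5% of WT members, S 11.1% and 8.04%, and G2/M 16.2% and 4.46%.

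**Figure D3:**
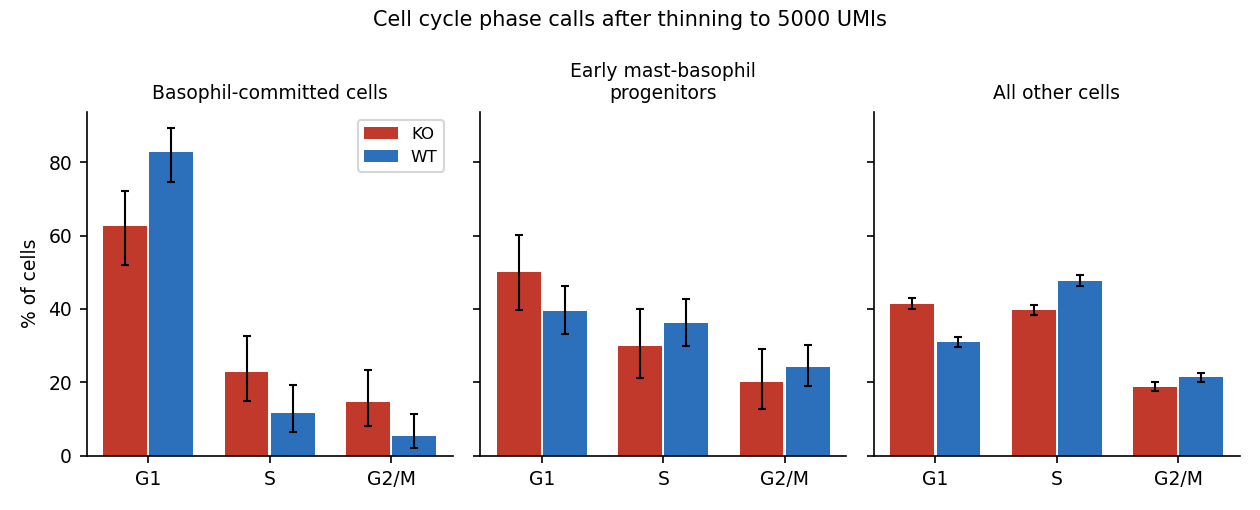
Share of cells called G1, S or G2/M after thinning to 5000 UMIs (vertical axis, percent, bars are exact 95% Clopper-Pearson intervals) for basophil-committed cells, early mast-basophil progenitors and all other cells, KO left of WT. The KO members have fewer G1 cells than the WT members, 62.5% against 82.9%, while the other KO cells have more than the other WT cells, 41.5% against 31.0%.

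Immediate early genes, which answer signals within minutes, were lower in KO members. Of 13 measured genes of the list, 7 were at least 1.5-fold lower and 0 higher, with a median log2 ratio of -0.61, against 0 of 13 in either direction and a median of 0.02 in the other cells. Junb, a subunit of the AP-1 transcription factor, stood at 282 CPM in KO members (258 to 308) and 543 in WT members (511 to 577), a log2 ratio of -0.95 (-1.10 to -0.79). Per member, Junb had a lowest, median and highest of 0, 1.76 and 42.3 UMIs per 10000 in KO cells and of 0, 5.02 and 39.3 in WT cells. The ranges overlap, with a lower median in KO. Fosb, another AP-1 subunit, stood at 222 and 451 CPM (-1.03), the zinc finger factor Egr1 at 46.1 and 114 CPM (-1.31), and the phosphatase Dusp1, which switches off MAP kinases, at 69.1 and 150 CPM (-1.11). Fos and Jun, which the rule for named genes did not pick and which were named after their values were seen, had log2 ratios of -0.76 and -0.64. Per member the whole list had a median of 39.3 UMIs per 10000 in KO cells (lowest 4.70, highest 305) and 73.8 in WT cells (lowest 5.33, highest 278).

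Few secreted mediators passed the 1.5-fold line in the members as a whole. Of 15 measured genes 2, Il6 and Ccl4, were lower and 0 higher, beside 5.01% of all genes lower, with a median log2 ratio of -0.23 in members and 0.07 over 10 genes in the other cells. Ccl4, a chemokine that draws lymphocytes and monocytes, stood at 492 CPM in KO members and 850 CPM in WT members, a log2 ratio of -0.79 (-0.91 to -0.67). The related chemokine Ccl3 stood at 431 and 634 CPM (-0.56, -0.69 to -0.43). Per member Ccl3 had a median of 1.03 UMIs per 10000 in KO cells, with a highest of 65.7, and of 3.62 in WT cells, with a highest of 69.7. Il6, an inflammatory cytokine, stood at 34.0 and 69.4 CPM (-1.03, -1.49 to -0.58), in 31 KO and 51 WT members. Il4, the signature basophil cytokine, stood at 110 and 141 CPM (-0.36, -0.63 to -0.09), and Csf1 at 359 and 391 CPM (-0.12, -0.27 to 0.03). With only the members of at least 50 UMIs of the protease sum, the mediator median was 0.01 and that of the immediate early genes -0.40.

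**Figure D4:**
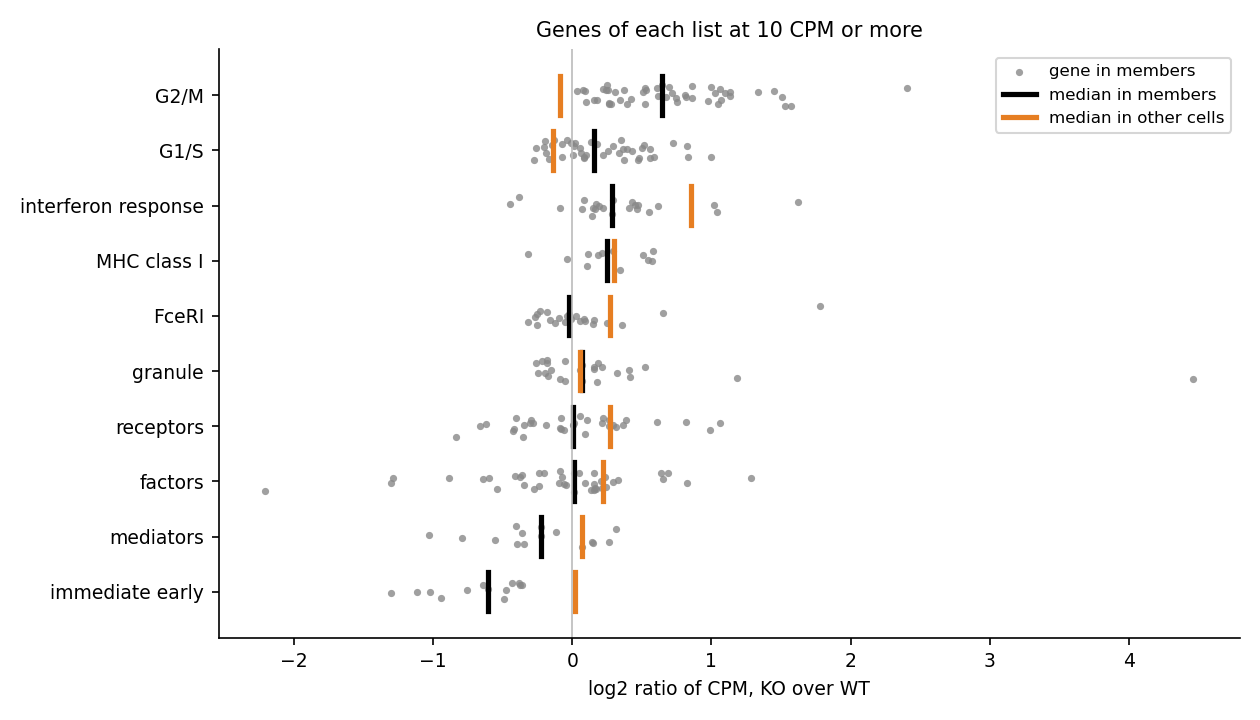
Log2 ratio of KO over WT (horizontal axis) of each measured gene of 10 lists, 1 dot per gene in the basophil-committed cells, with the list's median in members in black and in other cells in orange. G2/M genes lie mostly above 0 with a median of 0.65, and immediate early genes below it with a median of -0.61.

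The size of these shifts differed between ranges of the protease sum, a difference that was not tested. Among unmarked members at 10 to 49 UMIs of the protease sum, 12 of 14 immediate early genes and 11 of 16 mediator genes were lower in KO, with medians of -1.26 and -1.04. From 50 to under 200 UMIs 11 of 13 and 6 of 15 were lower, with medians of -1.15 and -0.53. At 200 UMIs or more the medians were -0.08 and 0.46, with 2 of 13 and 0 of 15 lower and 1 and 5 higher. Junb stood at 386, 269 and 329 CPM in KO cells over the 3 ranges and at 1410.4, 875 and 304 CPM in WT cells. Ccl3 stood at 662, 554 and 574 CPM in KO cells and at 1792.6, 956 and 402 CPM in WT cells. For both genes the WT level was highest in cells with the least protease RNA and the KO level changed less. The KO sums of the lowest range lean on a few deep cells, as described below. Read against the background shares above, 11 of 16 mediator genes lower compares with 26.6% of all genes in the lowest range.

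The lowest range also differed between the libraries in other ways. It held 22 KO and 32 WT unmarked members. Their summed early neutrophil genes (Elane, Mpo, Prtn3 and Ctsg, all 4 detected) stood at 3313.8 CPM in KO and 794.6 CPM in WT, and their part in the result was not tested. Of 35 receptor genes 21 were lower in KO and 5 higher there, and of 37 transcription factor genes 19 were lower and 5 higher. Hdc stood at 2244.8 CPM in KO and 5517.9 in WT, Gata2 at 523 and 1031 CPM, and Cd200r3 at 517 and 1539.6 CPM. Of 23 genes of the IgE receptor list 12 were lower there and 0 higher, and of 24 granule genes 8 were lower and 2 higher. Of 21 Myc target genes, which serve growth, 15 were higher there and 0 lower, with a median log2 ratio of 0.91. These counts stand beside 24.3% of all genes higher and 26.6% lower in this range. The KO sums of this range lean more on a few deep cells. Total UMIs had a median of 10216 in KO and 10208.5 in WT, but an upper quartile of 22198.2 and 11247.2. The KO cells of 23663 to 49685 UMIs were all called S or G2/M and held at most 11 UMIs of Prss34. Their part in the KO values was not tested.

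The same genes were set in order of the protease sum, with early mast-basophil progenitors placed first. In KO cells Hdc stood at 353 CPM in the progenitors and at 2244.8, 2945 and 3604.2 CPM in the 3 ranges, and in WT cells at 256 and at 5517.9, 3688.3 and 2821.3 CPM. Hdc was thus highest at the top of the order in KO and at its lower end in WT. Cd200r3 behaved alike, with 49.4, 517, 812 and 893 CPM in KO and 48.2, 1539.6, 1241.3 and 725 CPM in WT. Fcer1a stood at 7.05, 178, 156 and 588 CPM in KO and at 7.48, 371, 334 and 397.5 CPM in WT. Kit, the receptor that basophils lose as they mature, was highest in the progenitors of both libraries. It fell along the order in KO, with 225, 68.3, 49.4 and 32.2 CPM. In WT it stood at 213, 19.3, 61.6 and 59.2 CPM, lowest in the lowest range. Ms4a2 and Gata2 defined the progenitors, so only their members' values are used: Ms4a2 stood at 915, 1495.8 and 1564 CPM in KO and at 1294.9, 1455.2 and 1547.8 CPM in WT. The ranges rest on the rule's own genes, and a deeper cell reaches a higher range more easily. The order was not shown to be one of maturation.

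**Figure D5:**
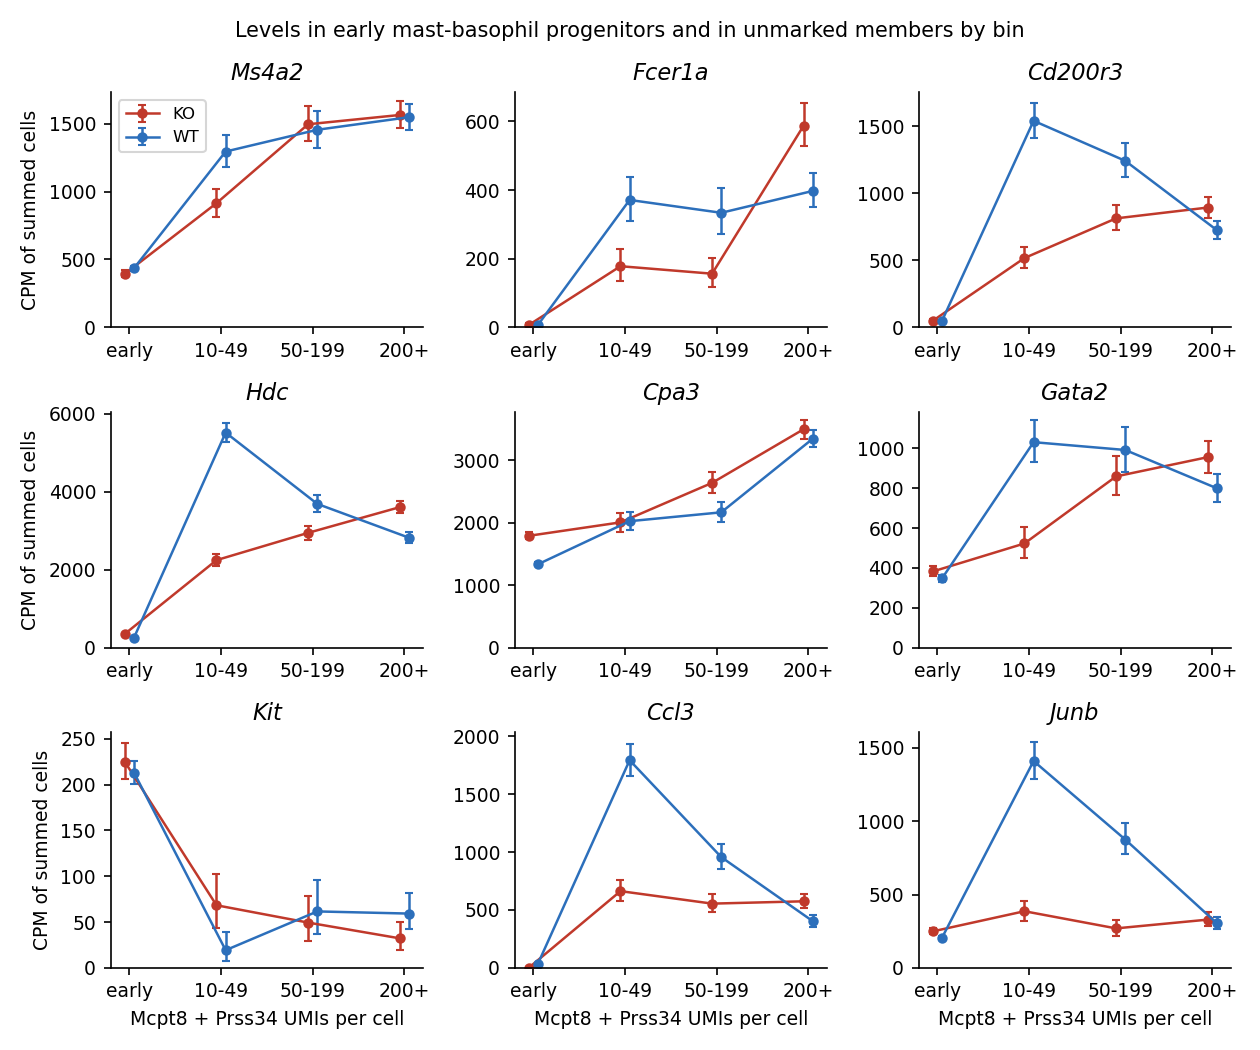
Level in CPM (vertical axes, bars are exact 95% Poisson intervals) of 9 genes in early mast-basophil progenitors and in unmarked members with 10 to 49, 50 to under 200, and 200 or more UMIs of Mcpt8 plus Prss34, KO and WT as separate lines. Ccl3 and Junb are higher in WT than in KO in the lower ranges, 1410.4 against 386 CPM for Junb, while at 200 UMIs or more KO and WT stand at 329 and 304 CPM for Junb and at 574 and 402 CPM for Ccl3.

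The IgE receptor and its signalling chain were nearly equal in the members as a whole. Of 24 measured genes 2 were at least 1.5-fold higher and 0 lower, beside 6.97% and 5.01% of all genes, with a median log2 ratio of -0.03. Ms4a2 had a log2 ratio of -0.01 (-0.10 to 0.08), Fcer1a of 0.03 (-0.16 to 0.21) and Fcer1g of 0.06 (-0.07 to 0.19). The kinases next to the receptor, Lyn and Syk, had ratios of -0.03 and -0.16, and the adaptors Gab2 and Lat2 of -0.23 and -0.27. The higher genes were the kinase Fyn (98.2 CPM in KO and 62.7 in WT, 0.65) and the protein kinase C gene Prkcb (49.9 and 14.5 CPM, 1.78), the second in 24 KO and 17 WT cells. Receptor and proximal signalling RNA thus differed by less than 1.5-fold, with these exceptions.

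Granule genes were as even. Of 25 measured genes 2 were higher and 0 lower, beside 6.97% and 5.01% of all genes, with a median log2 ratio of 0.07. Hdc stood at 2480.5 CPM in KO members and 2815.1 CPM in WT members (-0.18, -0.24 to -0.13), and the granule proteoglycan Srgn at 3059.4 and 3476.4 CPM (-0.18). Cpa3 stood at 2618.8 and 2096.8 CPM (0.32, 0.26 to 0.38), and in unmarked members, without the mast-marked cells, its ratio was 0.08. Rab27b, a GTPase of granule docking, stood at 58.7 and 25.9 CPM (1.18), with 29.0% of its KO UMIs in 1 cell. The granzyme gene Gzmb was found in 5 KO and 4 WT cells, too few for a comparison.

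Of 33 measured cytokine and surface receptor genes 4 were higher in KO members and 3 lower, with a median log2 ratio of 0.01. Both are larger shares than those over all genes, 6.97% higher and 5.01% lower. In unmarked members 2 of 31 were higher and 5 lower, beside 10.3% and 7.56% of all genes, with a median of -0.18. The IL-3 receptor chain Il3ra stood at 108 CPM in KO members and 82.3 CPM in WT members (0.39, 0.08 to 0.70), whereas Csf2ra, the specific chain of the GM-CSF receptor, stood at 39.0 and 61.6 CPM (-0.66, -1.11 to -0.23). Csf2rb, the chain that both receptors share, had a ratio of -0.29 (-0.48 to -0.11) in members and 0.74 in the other cells. Receptors of the alarmins, which tissues release on damage, were even: Il1rl1 for IL-33 had a ratio of 0.09, Il18rap for IL-18 of -0.19 and Crlf2 for TSLP of 0.06. Il7r, the partner of Crlf2 in the TSLP receptor, stood at 68.6 and 122 CPM (-0.83, -1.16 to -0.51). Cd200r3 had a ratio of -0.43 (-0.54 to -0.31) and its relative Cd200r1 of -0.42, both below the 1.5-fold line. The TGF-beta receptor Tgfbr1 stood at 71.3 and 34.2 CPM (1.06), beside a ratio of 1.09 in the other cells.

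Most transcription factors of the lineage differed by less than 1.5-fold. Of 41 measured genes 5 were higher and 6 lower, with a median log2 ratio of 0.01. Both are larger shares than those over all genes, 6.97% higher and 5.01% lower. In unmarked members 2 of 38 were higher and 5 lower, beside 10.3% and 7.56% of all genes, with a median of -0.10. Gata2 stood at 637 CPM in KO members and 670.1 CPM in WT members (-0.07, -0.19 to 0.04), and Cebpa at 188 and 222 CPM (-0.24, -0.45 to -0.03). Runx2, a relative of Runx1, stood at 144 and 217.5 CPM (-0.60, -0.83 to -0.37), and Ikzf2, an Ikaros family factor, at 543 and 697 CPM (-0.36, -0.48 to -0.24). Both were higher in KO over the other cells, with ratios of 0.38 and 0.60. Myc, a driver of growth, stood at 43.3 and 26.9 CPM (0.69, 0.16 to 1.22), while 0 of 21 genes of the Myc target list were higher or lower in members, with a median of 0.04, and 4 of 21 were higher and 0 lower in unmarked members, with a median of 0.27. Zfpm1, a GATA cofactor, had a ratio of -2.21 with 44.9% of its 49 WT UMIs in 1 cell.

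Interferon response genes had a median above 0 in members and in the rest of the marrow, but not in every range of the protease sum. Of 23 measured genes 4 were higher in KO members and 0 lower (6.97% and 5.01% of all genes), with a median log2 ratio of 0.28. In the other cells 19 of 27 were higher and 0 lower (2.22% and 1.22% of all genes), with a median of 0.86. The difference between these medians was not tested. Among unmarked members, 6 of 25 genes were higher and 12 lower at 10 to 49 UMIs of the protease sum. The shares over all genes there were 24.3% and 26.6%, and the list median was -0.47. From 50 to under 200 UMIs 13 of 23 were higher and 2 lower (19.6% and 17.9% of all genes), with a median of 0.61. At 200 UMIs or more 7 of 22 were higher and 2 lower (16.5% and 11.1% of all genes), with a median of 0.40. Ifi27l2a, an interferon-induced gene, stood at 54.3 CPM in KO members and 17.6 CPM in WT members (1.63) but was found in 26 and 10 cells only. Antigen presentation by MHC class I gave 0 of 12 genes higher or lower in members and a median of 0.25, beside 0.30 in the other cells. Its main chains were still higher in KO: H2-K1 stood at 1184 and 795 CPM (0.57, 0.48 to 0.67) and B2m at 1621.3 and 1109.8 CPM (0.55, 0.47 to 0.63), both with a UMI in every member of both libraries. Both were also higher in KO in the other cells, H2-K1 at 1110.7 and 861.6 CPM and B2m at 1476.4 and 1103.8 CPM.

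Among single genes at 100 CPM or more, the 12 highest ratios were those of the mast cell proteases Cma1 and Tpsb2, of Top2a, Mki67, Cks1b, H2afx and Hist1h4d, and of Rad51b, Mir99ahg, H2-Q7, Ctsc and Lyz2. Mir99ahg, a host transcript of microRNAs, stood at 142 CPM in KO members and 65.3 CPM in WT members (1.12, 0.80 to 1.44), close to its ratio of 1.36 in the other cells. Rad51b, a gene of DNA repair by recombination, stood at 155 and 71.0 CPM (1.13, 0.83 to 1.44), against 0.19 in the other cells. The MHC-like gene H2-Q7 stood at 318 and 183 CPM (0.80), and it belongs to a family of near-identical genes between which reads may be split. On the lower side, the cyclic GMP-dependent kinase gene Prkg1 stood at 94.9 and 244 CPM (-1.36, -1.62 to -1.11), against -0.13 in the other cells. The glucose transporter gene Slc2a3 stood at 183 and 384 CPM (-1.07, -1.26 to -0.88), and it was lower in all 3 ranges of the protease sum, with ratios of -1.77, -1.36 and -0.66. Car2 had the lowest ratio, -2.69, but 73.2% of its WT UMIs came from 1 cell. Of the 12 lowest genes, Prg3 had a UMI in 5 KO and 13 WT members, and 43.1% of the WT UMIs of Prdx2 and 42.7% of those of Elane came from 1 cell.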

How the data were processed

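Sorted GFP+Lin- marrow cells of 1 KO and 1 WT library were profiled with the Chromium Next GEM 3′ v3.1 kit, per the labels' protocols. The deposited matrices hold raw UMI counts per gene and barcode, made by the authors with Cell Ranger, version 6.0.2 per the file headers and 3.0.1 on GRCm38 per the submitters' processing notes. The sources used here do not name the annotation release. Positions were taken from GENCODE M21 (32158 of 32285 gene IDs matched). Cells with fewer than 500 genes or more than 10% mitochondrial UMIs were left out, and members held at least 10 UMIs of Mcpt8 plus Prss34. Member UMIs were summed per library and given as CPM. A gene counted as higher or lower at 1.5-fold, at a mean of 50 CPM or, in lists, 10 CPM. Levels have exact Poisson, shares Clopper-Pearson, differences of shares Newcombe and ratios conditional binomial intervals, all at 95% and for counting error only. With 1 sample per genotype there was no test across samples and no p-value. A level of 0 UMIs was set at a floor of 3 counts.

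Other groups were defined by UMIs: neutrophil progenitors, eosinophil, erythroid and B lineage cells by their markers, early mast-basophil progenitors by at least 3 UMIs each of Ms4a2 and Gata2. Second-lineage marks in members needed 10 UMIs of mast cell proteases, 50 of Prg2 plus Epx, 20 of Elane or 20 of Car1, Klf1 and Ermap. The rule for named genes took Phf6 and Runx1, the 12 highest and 12 lowest ratios at 100 CPM, up to 4 genes of each list by size of ratio, the 20 genes highest over other cells, and any gene of the marker, IgE receptor, granule, receptor and factor lists. Predicted gene models and genes of mitochondria, ribosomal proteins, globins, sex chromosomes and antigen receptors were passed over. The members, lists and rules were chosen with earlier results of these data known. Doublets were scored with Scrublet in scanpy, the top 0.8% of barcodes per 1000 barcodes being marked, and were kept in the main values. The calculations were tested on simulated data. The settings varied were the cell filter (1000 genes, 5% mitochondrial UMIs), removal of doublets, cutoffs of 5 and 50 UMIs or after thinning, second-lineage cells left out, edgeR TMM or median-of-ratios scaling, a mean over cells per 10000 UMIs, equal weight of the 3 protease ranges, other CPM minimums and unthinned phases. Unmarked members and their ranges were added after seeing the data. Tools were Python 3.11.15, numpy 2.4.6, scipy 1.17.1, pandas 2.3.3, scanpy 1.11.5, anndata 0.12.19, matplotlib 3.10.9, R 4.3.3 and edgeR 4.0.16.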

Additional observations from a re-analysis of the deposited data

Results flagged for a closer look

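Several values went one way in basophil-committed cells and the other way in the rest of the marrow, where both intervals lay on opposite sides of 0. The difference between the 2 groups of cells was not tested, and each genotype has 1 library. After thinning, the KO minus WT difference in the share of cells in G1 was -20.4 percentage points in members and 10.5 in other cells. That in S was 11.2 and -7.90, and that in G2/M 9.18 and -2.56. Unthinned, the members' interval for S includes 0. The division gene Mki67 had a log2 ratio of KO over WT of 0.81 in members and -0.18 in other cells. The chemokine gene Ccl4 had ratios of -0.79 and 0.30, and the AP-1 genes Fos and Junb of -0.76 and 0.09 and of -0.95 and 0.18. In unmarked members with at least 200 UMIs of the protease sum, the immediate early list had a median of -0.08 and the mediator list of 0.46. Among transcription factors, Cebpa had ratios of -0.24 and 0.19, Runx2 of -0.60 and 0.38, and Ikzf2 of -0.36 and 0.60. Among receptors, Csf2rb, the shared IL-3 and GM-CSF receptor chain, had ratios of -0.29 and 0.74, and Cd244a, an activating receptor of the SLAM family, of -0.62 and 0.57.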

How the results depend on the processing

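The KO minus WT share of members kept its sign under the alternatives run, but its interval includes 0, and at a minimum of 100 UMIs, not among them, 56 KO and 51 WT cells turn it round. The phase shares kept their direction unthinned, with doublets removed and in unmarked members. Unthinned, the S difference in members was 3.08 points, with an interval of -5.03 to 11.6 that includes 0. The count of genes higher in KO, 72, was 149 with doublets removed, 146 with a cutoff of 50 UMIs, 127 with the cutoff after thinning, 128 with second-lineage cells left out and in unmarked members, 115 with a mean over cells, 141 in unmarked members with ranges weighted alike, and 24 and 583 at 100 and 10 CPM. The count lower in KO, 83, was 129 with doublets removed, 152 with second-lineage cells left out, 154 in unmarked members, 226 with their ranges weighted alike, and 42 and 419 at 100 and 10 CPM. Higher genes were 46.5% of those past the fold in the main values, 64.0% with the cutoff of 50 UMIs, 64.1% after thinning and 34.2% with median-of-ratios scaling. The mediator median, -0.23, was 0.0059 with the cutoff of 50 UMIs and -0.51 in unmarked members with ranges weighted alike. The immediate early median was -0.40 and -0.91 there, and the G2/M median 1.21 in the second. The mast cell median, 0.61, reversed to -0.11 with the cutoff of 50 UMIs and to -0.068 in unmarked members, which by construction lack the mast-marked cells. The eosinophil median, -0.70, reversed to 1.03 with the cutoff of 50 UMIs and 0.64 after thinning. Apart from the unmarked members, the causes were not tested. The sign of the ratio changed under some alternatives for Fcer1a, Prss34, Ms4a2, Csf1, Hdc and Gata2. Depth limits genes of few UMIs, such as Phf6 with 75 in KO and 96 in WT members. No paired analysis was possible because each genotype has 1 library and the labels give no replicate numbers.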

Other observations

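Other gene groups of the basophil-committed cells are given here as values. Of 16 unfolded protein response genes, which help the endoplasmic reticulum fold secreted proteins, 1 was at least 1.5-fold higher in KO members and 0 lower, with a median log2 ratio of 0.20, against -0.05 in the other cells. The chaperone Hspa5 stood at 534 CPM in KO members and 411 CPM in WT members, a log2 ratio of 0.38 (0.24 to 0.51), and at 0.10 in unmarked members. Genes that an earlier look at these libraries had found higher or lower in KO over all cells, so not independent evidence here, were also read in members. Of 13 measured genes of the higher group 9 were higher in KO members and 0 lower, with a median of 1.03 beside 1.00 in the other cells. Of 16 genes of the lower group 8 were lower and 0 higher in KO members, but 1 of 14 was lower and 2 higher in unmarked members. Camk2d, a calcium-dependent kinase of the higher group, stood at 32.9 and 9.84 CPM (1.74), in 17 KO and 11 WT members.

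Marker genes of other cell types were summed over all members. The 5 monocyte genes reached 550 CPM in KO and 461 in WT, the 4 megakaryocyte genes 297 and 338, the 4 stem or multipotent genes 784 and 711.5, and the 5 B or plasma genes 34.6 and 43.0. The 4 dendritic genes reached 54.9 CPM in KO and 102.5 in WT, with 89.3% of the WT UMIs of Cd74 in 1 cell. The late neutrophil genes reached 1729.4 and 2313.3 CPM, and 87.0% of the KO and 92.8% of the WT UMIs of S100a8 came from 1 cell each. The mast cell genes reached 3317.2 and 2287.4 CPM in all members and 3073.7 and 2935 CPM in unmarked members, and the eosinophil genes 8151 and 13319.3 CPM in all members and 87.5 and 126 CPM in unmarked members.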
